A study of Mus musculus with 12 samples.

Results

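The genes described here encode 10 subunits of the BAF (SWI/SNF) chromatin remodelling complex, namely Actl6a, Actl6b, Ss18, Ss18l1, Phf10, Dpf1, Dpf3, Arid1a, Arid1b and Smarca4. They were found by symbol among the 46603 annotated genes of the count tables, and all 10 passed the filter on low counts in every comparison. RNA was sequenced from dissected mouse neocortex at embryonic day 12.5 (E12.5, both hemispheres) and postnatal day 5 (P5, a single hemisphere), on a C57Bl/6J background. Chd8+/+ mice were compared with Chd8+/- mice, bred from heterozygotes crossed to C57BL/6J, with 3 libraries per genotype and stage and 12 in all. Chd8+/- mice carried 1 constitutive null allele of Chd8, which encodes a chromatin remodeler. The allele was made by deleting the floxed exon 3 with the ubiquitous β-actinCre line, so that every tissue, not the neocortex alone, was heterozygous. The Cre transgene was bred out, and both genotypes shared the same strain background. The labels do not say that each library came from a separate animal, so p-values measure the spread between these libraries.

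BAF complexes use the energy of ATP to move or evict nucleosomes, and each complex is assembled from a set of positions that can be filled by alternative paralogs. As neural progenitors leave the cell cycle and become neurons, several positions are known to exchange their occupant. ACTL6A is replaced by ACTL6B, SS18 by SS18L1 (CREST), and PHF10 by DPF1 or DPF3, which turns the progenitor form (npBAF) into the neuronal form (nBAF). ARID1A and ARID1B are alternative DNA-binding subunits, and SMARCA4 (BRG1) is an ATPase with SMARCA2 (BRM) as its alternative; these belong to both forms. The microRNAs miR-9-3p and miR-124 are known to repress Actl6a through its 3′ UTR, and REST is known to repress genes of both microRNAs outside neurons.

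The mature miR-9-3p is shown with its seed (bases 2 to 8) in capitals, and beside it the stretch of the Actl6a transcript that holds the reverse complement of the seed, also in capitals. These are shown because Actl6a was the member with the largest stage difference. The microRNA is from RefSeq (GRCm38.p6), where 3 loci give the same mature sequence. The Actl6a stretch is from the GENCODE vM21 transcript Actl6a-201, on the plus strand of GRCm38 at chr3:32726628-32726652, in its 3′ UTR.
miR-9-3p: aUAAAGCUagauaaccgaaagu
Actl6a 3′ UTR: ctcaacgtctgtAGCTTTAgtacac
The 371-base 3′ UTR of Actl6a-201 held 1 such match, starting at its base 38, and the 196-base 3′ UTR of Actl6b-205 held 0. A match is a description of the letters and not a measured site.

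Promoters of Actl6a and Actl6b are shown because these genes moved furthest in opposite directions. Each is 300 bases long, most of them before the RefSeq start of the gene in GRCm38.p6, on the plus strand, at chr3:32708296-32708595 for Actl6a and chr5:137553296-137553595 for Actl6b. Capitals mark GC boxes (GGGCGG) and CCAAT boxes (CCAAT) on either strand, with overlapping matches merged.
Actl6a: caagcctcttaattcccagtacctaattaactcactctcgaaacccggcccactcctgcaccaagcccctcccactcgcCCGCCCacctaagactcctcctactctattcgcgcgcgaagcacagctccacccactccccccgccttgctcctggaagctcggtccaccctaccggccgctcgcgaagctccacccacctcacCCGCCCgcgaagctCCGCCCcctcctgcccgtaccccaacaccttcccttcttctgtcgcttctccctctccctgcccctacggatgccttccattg
Actl6b: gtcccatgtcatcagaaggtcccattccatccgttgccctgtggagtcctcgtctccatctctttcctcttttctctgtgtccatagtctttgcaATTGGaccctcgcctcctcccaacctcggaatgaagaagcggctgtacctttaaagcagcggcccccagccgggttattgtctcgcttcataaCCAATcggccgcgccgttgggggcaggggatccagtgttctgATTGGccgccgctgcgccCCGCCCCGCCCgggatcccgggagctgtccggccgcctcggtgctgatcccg
A GC box was found in the promoters of all 9 members matched in the table, against 35.7% of 32851 promoters of the same length. The promoter of Ss18 was not searched. A CCAAT box was found for 3 of these 9 members (Actl6b, Dpf1 and Dpf3), against 37.4% of all promoters, and a TATA box (TATAAA) for 0 of 9, against 13.6%. GC content was 63.7% in the Actl6a promoter and 61.7% in that of Actl6b, against a median of 52.7%. Over the 9 members it was between 55.3% (Dpf3) and 87% (Phf10), and its part in the GC box count was not tested. The left and right parts of the site bound by REST were searched as TTCAGCACC and GGACAGCGC. The left part was found for 0 of 9 members, and the right part alone for Arid1a and Arid1b, against 0.371% and 0.405% of all promoters.

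Library depth was between 38774591 and 54695236 counts. Levels are given as CPM, counts scaled to a common library size with TMM factors over all 12 libraries, and comparisons between genes use CPM per kilobase of merged exons (CPM/kb). Both sequencing runs of a library were summed, since their counts differed little more than sampling noise (chi-squared over its degrees of freedom of 1.18 to 1.54, against at least 7.09 for 2 libraries of a group). The library P5 Chd8+/- replicate 3 stood apart, with 43.7 by this measure to the nearest library of its group against at most 15.4 for the others, and values without it are given beside the genotype comparison at P5, the interaction and groups of results that use P5 Chd8+/- libraries. The targeted gene matched the labels. Chd8 was at 234, 229 and 235 CPM in E12.5 Chd8+/+ libraries against 162, 167 and 161 CPM in E12.5 Chd8+/- libraries. At P5 it was at 151, 151 and 145 CPM against 95.7, 98.6 and 95.0 CPM, a log2 fold change of -0.51 at E12.5 and -0.61 at P5 (adjusted p = 0.00562 and 7.21e-05, edgeR). The tissue label was checked on marker genes. The summed level of 8 progenitor markers was between 4208 and 4521 CPM at E12.5 and between 264 and 316 CPM at P5. That of 8 neuronal markers was between 2430 and 2949 CPM at E12.5 and between 7142 and 7673 CPM at P5. Lists of 5 markers of other cell types differed as well. From the 6 E12.5 to the 6 P5 libraries the summed level went from 237 to 291 CPM up to 947 to 1116 CPM for astrocytes, from 99.4 to 133.9 up to 304 to 345 CPM for the oligodendrocyte lineage, and from 23.4 to 27.6 up to 84.6 to 114.5 CPM for microglia. It went from 44.7 to 106 up to 319.8 to 569 CPM for choroid plexus and from 57.98 to 67.99 up to 135 to 206 CPM for striatal medium spiny neurons. The choroid plexus markers did not move together. In Chd8+/+ 4 of 5 had a log2 fold change above 0, but in Chd8+/- only 2 did, against 3 below 0. Of the striatal markers 4 of 5 were above 0 in each genotype. The summed level was lower at P5 for erythrocytes, from 2312 to 3101 down to 102 to 126 CPM, and for GABAergic interneurons, from 493 to 606.5 down to 355 to 463.5 CPM. In each genotype 4 of 5 erythrocyte markers had a log2 fold change below 0. The interneuron markers were split, with 3 below 0 and 2 above in each genotype. The part of these cell types in the stage differences of the members was not tested. In bulk tissue, fewer cells of a type and less RNA per cell cannot be told apart. The stages were also sequenced in different runs, so stage and run cannot be told apart.

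The question of the stage comparison was how transcripts of the exchanging positions differed between a neocortex rich in progenitors and one rich in neurons. In Chd8+/+, 5 members rose and 5 fell from E12.5 to P5 at an adjusted p under 0.05, where 83.1% of the 19676 genes tested were called. With a log2 fold change of at least 1 in either direction, 5 of 10 were called against 46.5% of all genes. In Chd8+/-, 8 of 10 were called (82.9% of all genes), with 3 higher and 5 lower, and again 5 of 10 passed the 2-fold limit (46.8%). The libraries of the stages did not overlap for 9 members in Chd8+/+ (84.2% of all genes) and 8 in Chd8+/- (84.1%). The share of members called was therefore near that of all genes, and the members differed from each other in size and direction. Gene length offsets remove a fitted trend of each library's levels with gene length, including the height of that trend. They moved the median log2 fold change of all genes by -0.22 in Chd8+/+ (from -0.018 to -0.24) and by -0.20 in Chd8+/- (from -0.0046 to -0.20). With these offsets, 3 members rose and 6 fell in both genotypes (35.6% and 48.4% of all genes in Chd8+/+, 36.1% and 47.2% in Chd8+/-). For single members, stage differences with these offsets are given where they end, turn or add a call or move it by over 1.5 times. Without P5 Chd8+/- replicate 3, 8 members were called in Chd8+/-, where about 15960 genes were called in all. All 10 members kept their direction, from -3.19 for Actl6a to 1.69 for Actl6b.

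**Figure D1:**
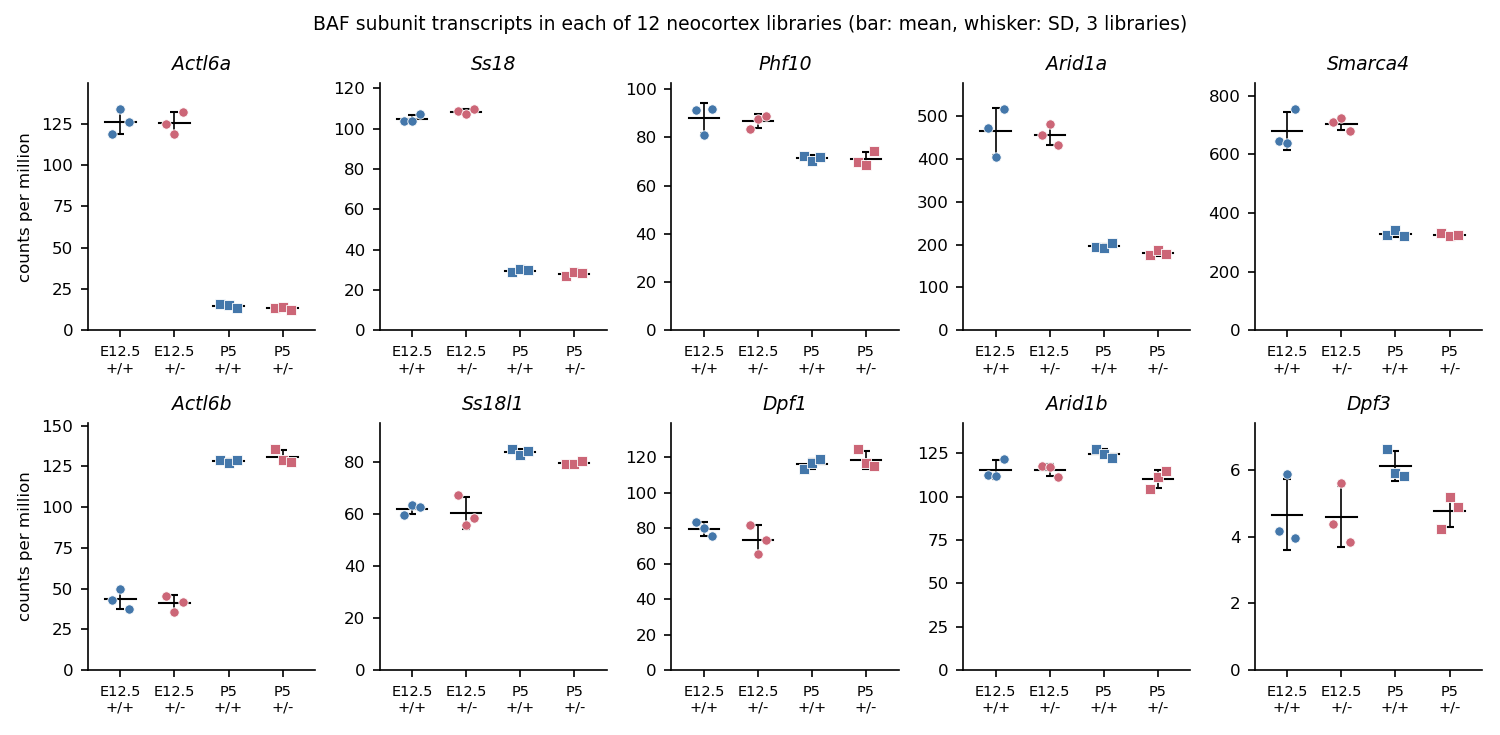
CPM of each member (y axis, from 0) in each of the 12 libraries, grouped by stage and genotype on the x axis; circles are E12.5, squares P5, blue Chd8+/+ and red Chd8+/-, with a bar at the mean and a whisker of 1 SD. Actl6a, Ss18, Arid1a and Smarca4 sat lower in all 6 P5 libraries than in any E12.5 library, and Actl6b, Ss18l1 and Dpf1 sat higher.

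Actl6a encodes the actin-related subunit of progenitor complexes (BAF53a). It was at 119, 134 and 126 CPM in E12.5 Chd8+/+ libraries and at 125, 119 and 132 CPM in E12.5 Chd8+/- libraries. The P5 libraries were at 15.7, 15.02 and 13.3 CPM in Chd8+/+ and at 13.6, 13.97 and 12.4 CPM in Chd8+/-. Every P5 library was thus far below every E12.5 library, while the genotypes overlapped within each stage. The fall was 8.6-fold in Chd8+/+ (log2 fold change -3.10, SE 0.071, adjusted p = 1.30e-14) and 9.42-fold in Chd8+/- (-3.24, SE 0.072, adjusted p = 1.01e-14). Only 2.70% of all genes tested had a lower log2 fold change in Chd8+/+, and 2.61% in Chd8+/-. The counted exons of Actl6a share 452 bases (11.6%) with Mrpl47 on the opposite strand. The recorded counting command for P5 sets no strand, so reads of that stretch cannot be told apart between the genes there. The setting at E12.5 is not given in the sources used here, and the part of a different setting in the stage differences was not tested.

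Actl6b encodes the neuronal replacement of ACTL6A (BAF53b). It was at 43.0, 49.6 and 37.7 CPM in E12.5 Chd8+/+ libraries and at 45.6, 35.9 and 41.6 CPM in E12.5 Chd8+/- libraries. Its P5 levels were 129, 127 and 129 CPM in Chd8+/+ and 136, 129 and 128 CPM in Chd8+/-. The direction was opposite to that of Actl6a, again with no overlap between the stages. Actl6b rose 2.95-fold in Chd8+/+ (log2 fold change 1.56, SE 0.088, adjusted p = 3.34e-10) and 3.19-fold in Chd8+/- (1.67, SE 0.089, adjusted p = 1.61e-10). Of all genes tested, 19.2% had a higher value in Chd8+/+. Its transcript was already present at E12.5, at 10.2 CPM/kb in Chd8+/+, above Dpf3 and near Arid1b.

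Ss18 encodes a progenitor subunit and Ss18l1 its calcium-responsive neuronal paralog. Ss18 was at 104, 104 and 107 CPM in E12.5 Chd8+/+ libraries and at 109, 107 and 109.6 CPM in E12.5 Chd8+/- libraries. At P5 it was at 28.9, 30.2 and 29.8 CPM in Chd8+/+ and at 27.1, 28.9 and 28.4 CPM in Chd8+/-. Replicates of Ss18 lay close together and the stages were widely separated, with a 3.54-fold fall in Chd8+/+ (log2 fold change -1.83, SE 0.039, adjusted p = 7.78e-15) and a 3.85-fold fall in Chd8+/- (-1.95, SE 0.040, adjusted p = 4.60e-15).

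Ss18l1 was at 59.8, 63.4 and 62.7 CPM in E12.5 Chd8+/+ libraries and at 67.5, 55.7 and 58.4 CPM in E12.5 Chd8+/- libraries. The P5 libraries were at 85.0, 82.9 and 84.2 CPM in Chd8+/+ and at 79.1, 79.3 and 80.4 CPM in Chd8+/-. All 6 P5 libraries were above all 6 E12.5 libraries, but the rise was modest beside that of Actl6b. It was 1.36-fold in Chd8+/+ (log2 fold change 0.44, SE 0.057, adjusted p = 4.66e-06) and 1.32-fold in Chd8+/- (0.40, SE 0.057, adjusted p = 1.43e-05). With gene length offsets the rise was 0.16 in both genotypes, and DESeq2 with these offsets no longer called it in Chd8+/- (adjusted p = 0.0675).

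The PHD finger position is held by PHF10 in progenitors and by DPF1 or DPF3 in neurons. Phf10 was at 91.5, 81.1 and 91.6 CPM in E12.5 Chd8+/+ libraries and at 83.6, 87.5 and 89.1 CPM in E12.5 Chd8+/- libraries. Its P5 levels were 72.4, 70.4 and 72.0 CPM in Chd8+/+ and 70.0, 68.7 and 74.2 CPM in Chd8+/-. Phf10 fell without overlap between the stages, but by only 1.23-fold in Chd8+/+ (log2 fold change -0.30, SE 0.050, adjusted p = 6.14e-05) and 1.22-fold in Chd8+/- (-0.29, SE 0.050, adjusted p = 8.96e-05). The fall was larger with gene length offsets, at -0.57 in Chd8+/+ and -0.51 in Chd8+/-. On the CPM scale Phf10 kept most of its E12.5 level, unlike Actl6a and Ss18. Phf10 shares 470 exon bases (9.57%) with 1600012H06Rik on the opposite strand, to which the same limit applies.

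Dpf1 was at 83.4, 80.0 and 75.5 CPM in E12.5 Chd8+/+ libraries and at 81.6, 65.3 and 73.5 CPM in E12.5 Chd8+/- libraries. At P5 it was at 113, 117 and 119 CPM in Chd8+/+ and at 124, 116 and 115 CPM in Chd8+/-. Dpf1 was higher in every P5 library, rising 1.46-fold in Chd8+/+ (log2 fold change 0.55, SE 0.065, adjusted p = 1.91e-06) and 1.61-fold in Chd8+/- (0.69, SE 0.066, adjusted p = 1.47e-07). The rise was smaller with gene length offsets, at 0.25 (adjusted p = 0.00466) and 0.42 (adjusted p = 7.02e-05). The E12.5 level of this neuronal member was already 22.6 CPM/kb in Chd8+/+, above the 17.9 CPM/kb of Phf10. In CPM the order was the reverse, with a mean of 79.6 for Dpf1 against 88.1 for Phf10. The order per kilobase thus rests on the exon lengths of 3529 and 4914 bases.

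Dpf3 was the least abundant member. It was at 4.16, 5.88 and 3.95 CPM in E12.5 Chd8+/+ libraries and at 4.37, 5.61 and 3.84 CPM in E12.5 Chd8+/- libraries, with replicate 2 the highest of each group. The P5 libraries were at 6.63, 5.93 and 5.83 CPM in Chd8+/+ and at 4.24, 5.19 and 4.91 CPM in Chd8+/-. The stages overlapped in both genotypes, and these values rest on 171 to 356 counts per library. The stage difference was 0.40 in Chd8+/+ (SE 0.16, adjusted p = 0.0337) and 0.054 in Chd8+/- (SE 0.17, adjusted p = 0.765). With gene length offsets it was 0.12 in Chd8+/+ (adjusted p = 0.493), and in Chd8+/- it turned to -0.19 (adjusted p = 0.283). The call was also lost without each of E12.5 Chd8+/+ replicates 1 and 3 and P5 Chd8+/+ replicates 1 and 2, where the value was between 0.29 and 0.42 and the adjusted p between 0.0530 and 0.140.

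Arid1a and Arid1b encode the large DNA-binding subunits found in complexes of both forms. Arid1a was at 473, 406 and 516 CPM in E12.5 Chd8+/+ libraries and at 457, 481 and 434 CPM in E12.5 Chd8+/- libraries. Its P5 levels were 194, 191 and 203 CPM in Chd8+/+ and 175, 187 and 179 CPM in Chd8+/-. The stages did not overlap, and Arid1a fell 2.37-fold in Chd8+/+ (log2 fold change -1.25, SE 0.074, adjusted p = 6.59e-10) and 2.53-fold in Chd8+/- (-1.34, SE 0.075, adjusted p = 2.84e-10).

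Arid1b was at 113, 112 and 122 CPM in E12.5 Chd8+/+ libraries and at 117.5, 117 and 111 CPM in E12.5 Chd8+/- libraries. At P5 it was at 127, 125 and 122 CPM in Chd8+/+ and at 105, 112 and 115 CPM in Chd8+/-. Unlike its paralog, Arid1b kept nearly the same level at both stages. Its log2 fold change was 0.11 in Chd8+/+ (SE 0.044, adjusted p = 0.0320) and -0.063 in Chd8+/- (SE 0.044, adjusted p = 0.196). The small rise in Chd8+/+ turned with gene length offsets to -0.13 (adjusted p = 0.0128), and in Chd8+/- the value with these offsets was -0.21 (adjusted p = 0.000314). The median of all genes moved as well, from -0.018 to -0.24 in Chd8+/+, and Arid1b lay above this median in both fits. In Chd8+/- the median moved from -0.0046 to -0.20, and Arid1b lay below it in both fits. Without E12.5 Chd8+/+ replicate 1 or 2, or P5 Chd8+/+ replicate 1 or 2, the rise was between 0.069 and 0.11 and was not called (adjusted p between 0.0704 and 0.201). Nor was it called with no filter on low counts (0.11, adjusted p = 0.0694). In Chd8+/- the stage difference of Arid1b was between -0.093 and -0.028 with each library left out, and was not called (edgeR adjusted p between 0.0973 and 0.582).

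Smarca4 encodes BRG1, the ATPase that drives remodelling. It was at 644, 637 and 753 CPM in E12.5 Chd8+/+ libraries and at 712, 724 and 679 CPM in E12.5 Chd8+/- libraries. The P5 libraries were at 324, 340.4 and 321 CPM in Chd8+/+ and at 331, 319.9 and 325 CPM in Chd8+/-. Smarca4 fell 2.07-fold in Chd8+/+ (log2 fold change -1.05, SE 0.063, adjusted p = 6.64e-10) and 2.17-fold in Chd8+/- (-1.12, SE 0.063, adjusted p = 3.14e-10), with no overlap of the stages. Its exons share 99 bases (1.53%) with Gm27373. The alternative ATPase gene Smarca2 moved the other way. It was between 73.9 and 84.2 CPM in the 6 E12.5 libraries and between 196 and 213 CPM in the 6 P5 libraries, a rise of 1.46 in Chd8+/+ and 1.33 in Chd8+/- on the log2 scale (adjusted p = 1.13e-13 and 2.94e-13).

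**Figure D2:**
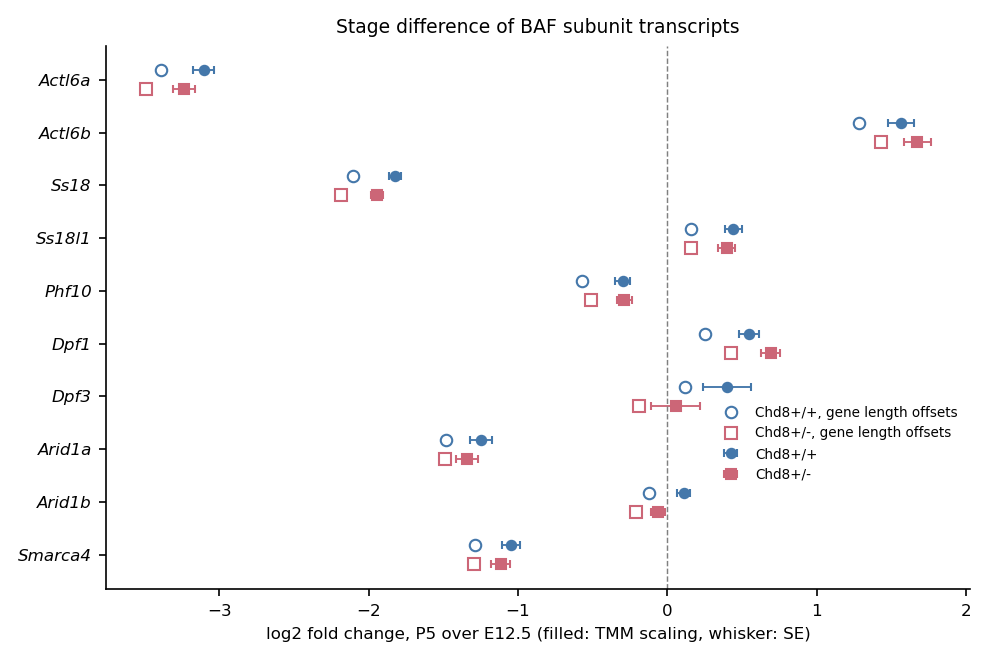
Log2 fold change of each member from E12.5 to P5 (x axis, above 0 is higher at P5) in Chd8+/+ (blue circles) and Chd8+/- (red squares), with whiskers of 1 SE; open symbols are the same fits with gene length offsets. Actl6a lies furthest to the left at -3.10 and -3.24 and Actl6b furthest to the right at 1.56 and 1.67, and only Arid1b in Chd8+/+ and Dpf3 in Chd8+/- change side with the offsets.

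Per kilobase of exon, the order of the members changed with stage. In E12.5 Chd8+/+ the mean level was highest for Smarca4 (105 CPM/kb), followed by Arid1a (40.5), Actl6a (32.5), Ss18 (23.2), Dpf1 (22.6), Phf10 (17.9), Ss18l1 (14.3), Actl6b (10.2), Arid1b (9.17) and Dpf3 (1.10). The libraries of Ss18 and Dpf1 overlapped in this order, as did those of Actl6b and Arid1b. In P5 Chd8+/+ the order was Smarca4 (50.7 CPM/kb), Dpf1 (33.0), Actl6b (30.1), Ss18l1 (19.3), Arid1a (17.1), Phf10 (14.6), Arid1b (9.89), Ss18 (6.55), Actl6a (3.77) and Dpf3 (1.45), with no overlap between neighbours. Smarca4 was thus first and Dpf3 last at both stages, while Actl6a went from the third place to the ninth. These levels divide by all annotated exons of a gene, which for Actl6a is 3886 bases against 2010 bases of the transcript Actl6a-201.

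Ratios of paired subunits within a library do not depend on the scaling between libraries. The length-scaled ratio of Actl6b to Actl6a was 0.329, 0.338 and 0.273 in E12.5 Chd8+/+ libraries and 0.332, 0.275 and 0.286 in E12.5 Chd8+/- libraries. At P5 it was 7.48, 7.69 and 8.87 in Chd8+/+ and 9.10, 8.41 and 9.35 in Chd8+/-. The geometric mean went from 0.312 to 7.99 in Chd8+/+ and from 0.297 to 8.94 in Chd8+/-, increases of 25.6-fold and 30.1-fold. The ratio therefore passed from under 1 to over 1 in both genotypes, and each gene contributed, the fall of Actl6a more than the rise of Actl6b on the log2 scale.

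The ratio of Ss18l1 to Ss18 also passed 1. It was between 0.540 and 0.647 in the 6 E12.5 libraries and between 2.86 and 3.06 in the 6 P5 libraries, an increase of 4.80-fold in Chd8+/+ and 5.09-fold in Chd8+/-. The ratio of Dpf1 to Phf10 was above 1 at both stages, between 1.04 and 1.37 at E12.5 and between 2.16 and 2.48 at P5, increases of 1.795-fold and 1.98-fold. At E12.5 this order rests on the scaling by exon length, since Phf10 had more CPM than Dpf1 in every E12.5 library. The ratio of Dpf3 to Phf10 stayed far under 1, at 0.0607 in E12.5 Chd8+/+ and 0.0994 in P5 Chd8+/+, and at 0.0611 and 0.0781 in Chd8+/-. In Chd8+/- the stages overlapped for this ratio, and its log2 stage difference was between 0.21 and 0.50 with each library left out. Arid1b to Arid1a went from 0.227 to 0.579 in Chd8+/+ and from 0.230 to 0.556 in Chd8+/-, with Arid1a the more abundant per kilobase in all 12 libraries. Smarca4 to Smarca2 went from 10.8 to 1.90 in Chd8+/+ and from 10.7 to 1.96 in Chd8+/-, so that Smarca4 remained the more abundant ATPase transcript per kilobase at P5. The log2 stage differences of these ratios in Chd8+/- without P5 Chd8+/- replicate 3 were 4.88 for Actl6b to Actl6a (4.91 with it), 2.35 for Ss18l1 to Ss18 (2.35), 1.04 for Dpf1 to Phf10 (0.98), 0.37 for Dpf3 to Phf10 (0.35), 1.24 for Arid1b to Arid1a (1.28) and -2.43 for Smarca4 to Smarca2 (-2.45).

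**Figure D3:**
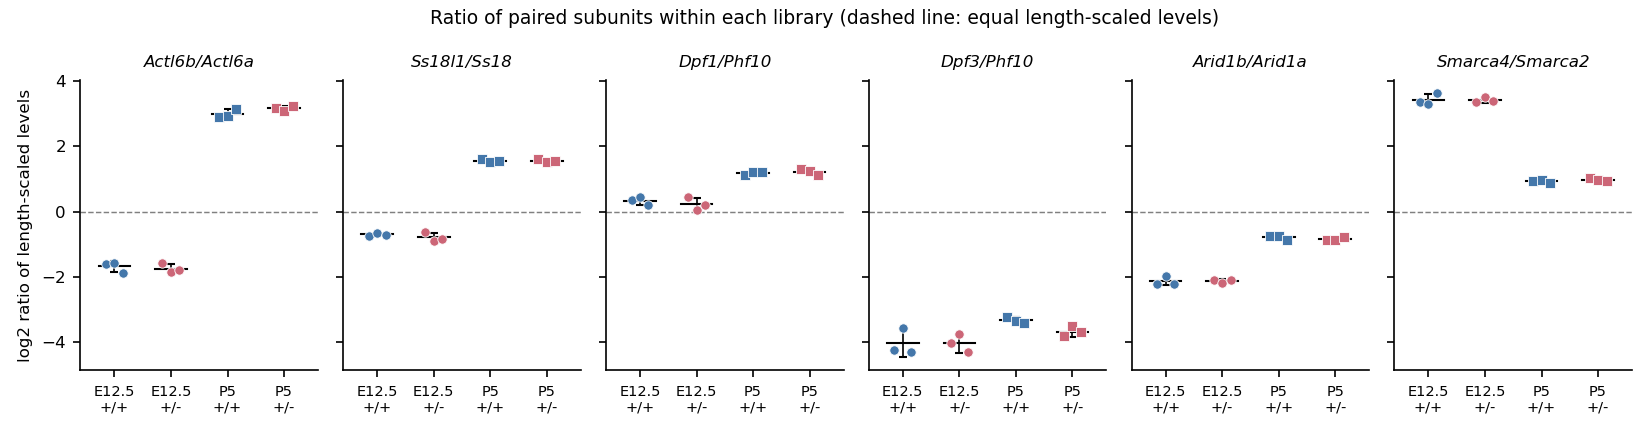
Log2 ratio of length-scaled levels for 6 pairs of subunits (y axis) in each library, by stage and genotype; symbols, bars and whiskers are as for the levels, and the dashed line marks equal levels. The pairs Actl6b/Actl6a and Ss18l1/Ss18 cross the line between E12.5 and P5, while Dpf1/Phf10 lies above it and Dpf3/Phf10 below it at both stages.

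The other subunits of BAF and of its relatives PBAF and ncBAF were taken from a list in which 21 genes were found and tested. Between the stages, 4 rose and 15 fell in Chd8+/+ (41.4% and 41.7% of all genes), and 5 rose and 15 fell in Chd8+/- (41.3% and 41.6%). The median log2 fold change was -0.61 and -0.52, against -0.018 and -0.0046 over all genes. With gene length offsets 3 rose and 17 fell in both genotypes (35.6% and 48.4% of all genes in Chd8+/+, 36.1% and 47.2% in Chd8+/-). Bcl7c, Brd9 and Bcl11b turned or changed their call with the offsets. Bcl7c went from 0.12 to -0.14 in Chd8+/+ (called in both fits) and from 0.15 to -0.062 in Chd8+/- (adjusted p = 0.2801 with the offsets). Brd9 went from 0.027, not called, to -0.24 in Chd8+/+ (adjusted p = 0.000746) and from 0.12 to -0.14 in Chd8+/- (called in both). Bcl11b went from 0.057 to -0.18 in Chd8+/+ (called in neither) and from -0.15 (adjusted p = 0.284) to -0.33 in Chd8+/- (adjusted p = 0.0361). Bcl7c and Brd9 are accessory subunits named after their values were seen, as is Bcl7b. Without P5 Chd8+/- replicate 3, the calls of Brd9 (adjusted p = 0.0524) and Bcl7b (adjusted p = 0.0789) in Chd8+/- were lost. Smarca2 alone rose more than 2-fold. With gene length offsets, Smarcd2 (-1.21 and -1.04) and Brd7 (-1.19 and -1.16) fell by more than 2-fold in both genotypes, besides the 5 genes below. Smarcd1 (-1.003) and Actb (-1.025) then passed in Chd8+/+ only. Without the offsets 5 genes fell by more than 2-fold in both genotypes. In either direction, 46.5% of all genes passed this limit in Chd8+/+ and 46.8% in Chd8+/-. Smarce1, a core DNA-bending subunit, went from 346 to 99.4 CPM in Chd8+/+ (log2 fold change -1.80), and Smarcc1 (BAF155), a core scaffold subunit, from 428 to 126 CPM (-1.76). Dpf2, the ubiquitous member of the DPF family, went from 169.9 to 54.9 CPM (-1.63). Arid2 and Pbrm1, which mark PBAF complexes, went from 249 to 84.6 CPM (-1.56) and from 259 to 107 CPM (-1.28). In Chd8+/- the log2 fold changes of these 5 genes were between -1.94 (Smarcc1) and -1.41 (Pbrm1), and without P5 Chd8+/- replicate 3 between -1.95 (Smarcc1) and -1.44 (Pbrm1).

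The list of regulators and microRNA host genes had 8 genes found and tested, of which 0 rose and 7 fell in Chd8+/+ (41.4% and 41.7% of all genes) and 1 rose and 7 fell in Chd8+/- (41.3% and 41.6%). The median was -1.57 and -1.60. Rest, the repressor of neuronal genes named above, went from 49.96 to 9.29 CPM in Chd8+/+ (log2 fold change -2.43, adjusted p = 3.56e-13) and from 52.3 to 9.20 CPM in Chd8+/- (-2.51). Ptbp1, a splicing repressor of progenitors, fell from 334 to 52.5 CPM (-2.67) and from 325 to 48.9 CPM (-2.73). Its neuronal paralog Ptbp2 fell as well, from 526 to 183 CPM (-1.52) and from 525 to 170.0 CPM (-1.63). Of the miR-9 host transcripts, C130071C03Rik fell from 405 to 132 CPM in Chd8+/+ (-1.62) and from 384 to 130.1 CPM in Chd8+/- (-1.56), and Mir9-3hg from 161.5 to 44.5 CPM (-1.86) and from 183 to 47.1 CPM (-1.96). The Chd8+/- values of these 5 genes without P5 Chd8+/- replicate 3 were -2.49 for Rest, -2.74 for Ptbp1, -1.64 for Ptbp2, -1.54 for C130071C03Rik and -1.92 for Mir9-3hg. The transcript that rose in Chd8+/- was Mir124a-1hg, a host of miR-124 named here after its values were seen, at 0.28 (adjusted p = 0.0227) and at 0.090 in Chd8+/+ (adjusted p = 0.427). It was at 0.048 in Chd8+/- and -0.18 in Chd8+/+ with gene length offsets and was not called, so that 0 genes of this list rose and 7 fell in each genotype (35.6% and 48.4% of all genes in Chd8+/+, 36.1% and 47.2% in Chd8+/-). Without P5 Chd8+/- replicate 3 it was at 0.34 in Chd8+/- (adjusted p = 0.0128). The other miR-124 host transcript of the list, Mir124-2hg, also named after its values were seen, fell from 126 to 67.5 CPM in Chd8+/+ (-0.90, adjusted p = 6.93e-09) and from 128 to 63.4 CPM in Chd8+/- (-1.01, adjusted p = 2.02e-09). These are counts of long host RNAs, and mature microRNAs were not measured.

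**Figure D4:**
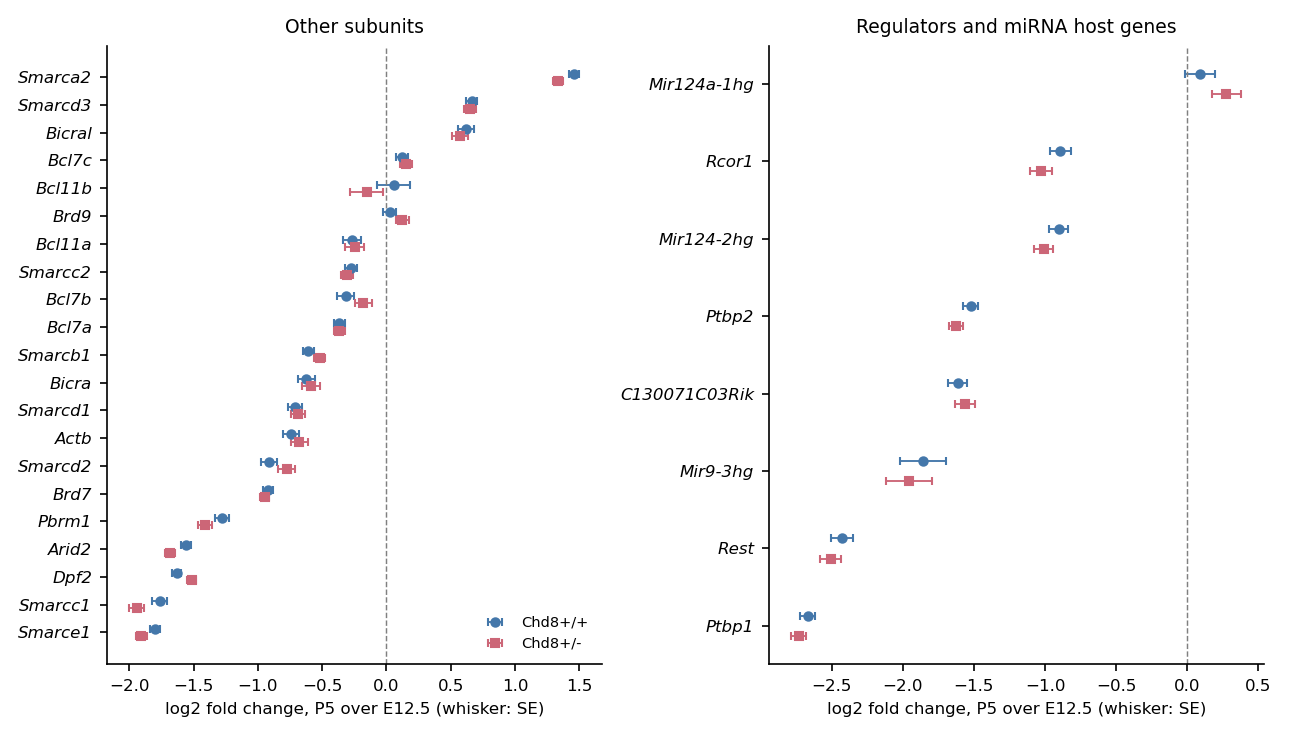
Log2 fold change from E12.5 to P5 (x axis) of the other complex subunits (left) and of regulators and microRNA host genes (right), in Chd8+/+ (blue circles) and Chd8+/- (red squares), with whiskers of 1 SE. Most subunits lie below 0 with Smarca2 as the highest at 1.46 and 1.33, and Ptbp1 and Rest are the lowest on the right, at -2.67 and -2.43 in Chd8+/+.

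The genotype comparisons asked whether loss of 1 copy of Chd8 went with a difference in these transcripts within a stage. At E12.5, edgeR called 0 of the 10 members, where 0.00553% of 18081 genes (Chd8 alone) were called. No member had an unadjusted p under 0.05 (5.15% of all genes), and DESeq2 called 0 members (0.0373% of the genes it tested). Log2 fold changes were between -0.12 for Dpf1 (SE 0.078, adjusted p = 0.951) and 0.055 for Smarca4 (SE 0.071, adjusted p = 0.977). With each E12.5 library left out, Dpf1 was between -0.20 and -0.036 and Smarca4 between 0.015 and 0.14. The genotypes overlapped for all members but Ss18, whose Chd8+/- libraries began at 107.4 CPM where the Chd8+/+ libraries ended (log2 fold change 0.048, SE 0.038), where 11.4% of all genes did not overlap.

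At P5, edgeR again called 0 of 10 members (0.00536% of 18666 genes, Chd8 alone). With each P5 library left out it called 0 members each time and 1 to 327 genes, the 327 without P5 Chd8+/- replicate 2. An unadjusted p under 0.05 was reached by 3 members, Arid1b, Dpf3 and Arid1a, against 17.8% of all genes. DESeq2 called 1 member, Arid1b, against 5.22% of the 12467 genes it tested. The libraries of the genotypes did not overlap for 5 members, Arid1b, Dpf3, Arid1a, Ss18 and Ss18l1, all lower in Chd8+/-, where 23.4% of all genes did not overlap and 14.8% were lower without overlap. The other subunits gave 5 of 21 with an unadjusted p under 0.05.

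Arid1b, at 105, 112 and 115 CPM in Chd8+/- against 127, 125 and 122 CPM in Chd8+/+, had a log2 fold change of -0.16, or a level lower by 10.5% (SE 0.040, adjusted p = 0.116 with edgeR and 0.0238 with DESeq2). The DESeq2 call was lost without P5 Chd8+/+ replicate 1 (adjusted p = 0.295) or replicate 2 (0.106), or without P5 Chd8+/- replicate 1 (0.165). Without P5 Chd8+/- replicate 3 it was kept, at -0.19 (adjusted p = 0.0379). The edgeR value without this library was -0.18 (adjusted p = 0.192). With gene length offsets the difference was -0.087 (adjusted p = 0.301 with edgeR and 0.413 with DESeq2). Arid1b has 12600 exon bases and Arid1a 11476, the longest of the members.

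Dpf3 had the largest difference, -0.34 (SE 0.11, adjusted p = 0.152), at 4.24 to 5.19 CPM in Chd8+/- against 5.83 to 6.63 CPM in Chd8+/+. The value was -0.33 with gene length offsets and -0.35 without P5 Chd8+/- replicate 3. Arid1a was at -0.10 (SE 0.041, adjusted p = 0.235), at -0.033 with gene length offsets and at -0.089 without P5 Chd8+/- replicate 3. Ss18l1 was at -0.061 (SE 0.031, adjusted p = 0.334) and Ss18 at -0.056 (SE 0.049, adjusted p = 0.577), at -0.059 and -0.055 without P5 Chd8+/- replicate 3 and at -0.042 and -0.036 with gene length offsets. The exchanging pair with the widest stage difference overlapped between genotypes. Actl6a was at -0.12 (SE 0.079, adjusted p = 0.444) and Actl6b at 0.043 (SE 0.037, adjusted p = 0.574). Without P5 Chd8+/- replicate 3 they were at -0.066 (adjusted p = 0.737) and 0.069 (adjusted p = 0.441). Phf10 was at 0.0038, Dpf1 at 0.045 and Smarca4 at 0.0031, and without that library at -0.020, 0.076 and 0.013. Gene length offsets put them at 0.030, 0.052 and 0.045. With each P5 library left out, Actl6a was between -0.18 and -0.066, Actl6b between 0.015 and 0.069, Dpf1 between 0.0076 and 0.076 and Ss18 between -0.074 and -0.031. None of these p-values shows that the levels were equal.

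**Figure D5:**
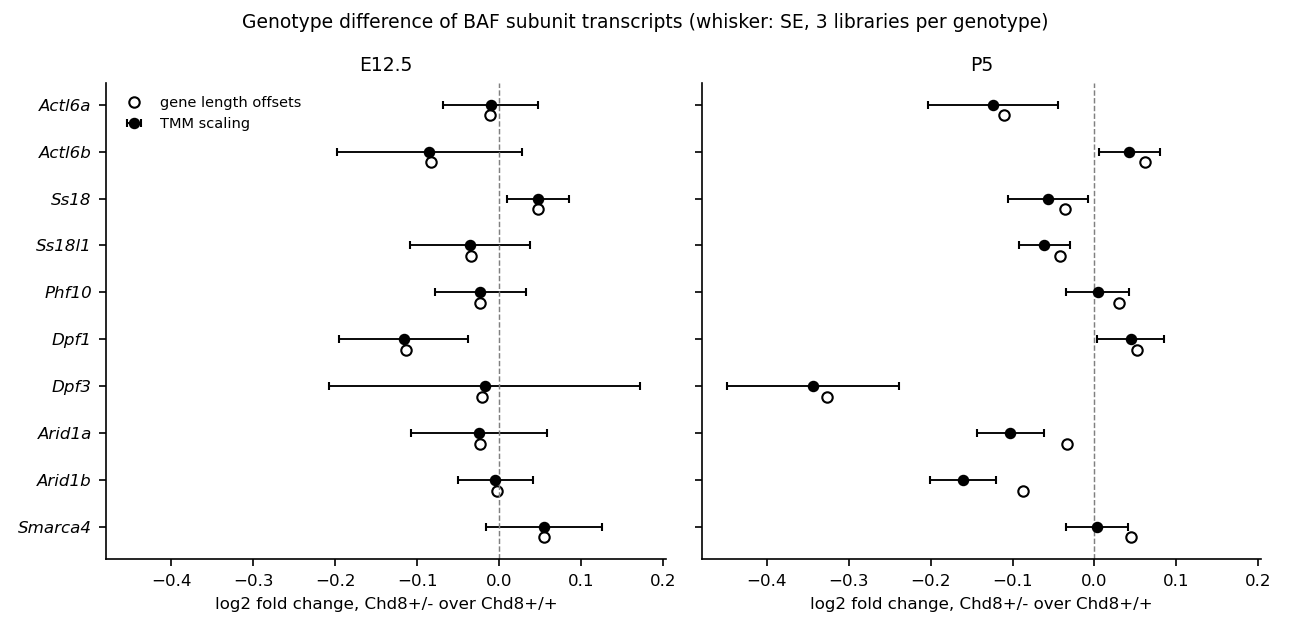
Log2 fold change of each member between genotypes (x axis, below 0 is lower in Chd8+/-) at E12.5 (left) and P5 (right), with whiskers of 1 SE from 3 libraries per genotype; open circles are the fits with gene length offsets. At P5 Dpf3 lies at -0.34, Arid1b at -0.16 and Arid1a at -0.10, and the last 2 move to -0.087 and -0.033 with the offsets.

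Of the other subunits at P5, Bcl11b, a zinc finger protein of the complex in neurons, had a log2 fold change of -0.28 (SE 0.066, adjusted p = 0.113 with edgeR and 0.00147 with DESeq2), from 194 CPM in Chd8+/+ to 158 CPM in Chd8+/-. With each P5 library left out it was between -0.35 and -0.20 in edgeR and passed there only without P5 Chd8+/- replicate 2 (adjusted p = 0.0302), while DESeq2 called it in all 6 cases (adjusted p = 0.0128 without P5 Chd8+/- replicate 3). It was at -0.23 with gene length offsets (edgeR adjusted p = 0.168). The others with an unadjusted p under 0.05 were Arid2 and Pbrm1 at -0.12 each, Smarcc1 at -0.10 and Smarcb1, a core subunit, at 0.096, and among the regulators Ptbp2 at -0.089. In the same order, these 5 genes were at -0.054, -0.060, -0.055, 0.15 and -0.030 with gene length offsets, and without P5 Chd8+/- replicate 3 at -0.14, -0.14, -0.11, 0.091 and -0.091. With all 6 libraries, edgeR called none of these 5 genes, nor Bcl11b, after adjustment. Smarcc1 was at -0.069 in edgeR without P5 Chd8+/- replicate 1.

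Other marker lists differed with genotype at P5 beside these values. The summed level of 5 markers of striatal medium spiny neurons was between 135 and 169 CPM in Chd8+/- and between 191 and 206 CPM in Chd8+/+, with 5 of 5 lower. That of 5 markers of GABAergic interneurons was 355 to 428 CPM against 445.5 to 463.5 CPM, with 5 of 5 lower. That of 5 choroid plexus markers was 319.8 to 377 CPM against 437 to 569 CPM, most of it from Ttr, again with 5 of 5 lower, and that of 5 endothelial markers 136 to 147.5 CPM against 147.6 to 164.5 CPM, with 4 of 5 lower. Progenitor markers, with 7 of 8 lower, were at 264 to 292 CPM against 283 to 316 CPM, so that these libraries overlapped. When P5 Chd8+/- replicate 3 was left out, the Chd8+/- range was 346 to 377 CPM for choroid plexus and 137.5 to 147.5 CPM for endothelial markers, and the ranges of the other 3 lists did not change. The interneuron markers were between -0.28 and -0.0050 on the log2 scale. Meningeal markers were higher in 5 of 5, with overlap of the sums (219 to 287 against 228 to 251 CPM, and 219 to 275.5 without that library). At E12.5, interneuron markers were lower in Chd8+/- in 5 of 5, and choroid plexus and striatal markers higher in 5 of 5. Of all genes, 14.8% were lower at P5 without overlap. The part of these cell types in the differences of Arid1b, Dpf3, Arid1a and Bcl11b was not tested.

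The interaction of genotype and stage, which tests whether the genotype difference at P5 differs from that at E12.5, was called for 0 of 10 members and for 0 of 19676 genes (0.0%) with edgeR, and for 0 of 9 members and 8 of 8616 genes (0.0929%) with DESeq2, which gave Dpf3 no adjusted p. An unadjusted p under 0.05 was reached by Arid1b (-0.17, SE 0.062, adjusted p = 0.429) and Ss18 (-0.12, SE 0.055, adjusted p = 0.490), against 10% of all genes in the same edgeR quasi-likelihood fit. Without P5 Chd8+/- replicate 3 these were at -0.20 (adjusted p = 0.430) and -0.13 (adjusted p = 0.534). Gene length offsets put Arid1b at -0.084 (adjusted p = 0.725) and Ss18 at -0.080 (adjusted p = 0.756), and neither then had an unadjusted p under 0.05. Actl6a had an interaction of -0.13 (SE 0.097, adjusted p = 0.663), which was -0.082 without P5 Chd8+/- replicate 3 and between -0.20 and -0.060 with each library left out. The ratio of Actl6b to Actl6a at P5 overlapped between genotypes, whereas that of Dpf3 to Phf10 was between 0.0704 and 0.0878 in Chd8+/- and between 0.0942 and 0.106 in Chd8+/+.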

How the data were processed

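Paired-end, strand-marking (dUTP) mRNA libraries were sequenced from the neocortex of the 4 groups. The deposited values were raw counts per gene that the authors made with featureCounts on Ensembl genes of GRCm38, for each of the 2 sequencing runs of a library. Their processing notes list Trim Galore 0.4.1, TopHat2 2.1.0 and featureCounts 1.5.0. The P5 header records a paired-end command without a strand option, and the E12.5 command is not given in the sources used here. Whether reads in stretches shared by genes on opposite strands were assigned at E12.5 is therefore not known. Symbols came from a table that matched 46005 of the 46603 gene identifiers.

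Runs were summed per library. Counts were tested with edgeR 4.0.16 (quasi-likelihood test, TMM scaling, filterByExpr, Benjamini-Hochberg adjustment over all genes tested, threshold 0.05), in R 4.3.3. The stage and interaction tests used all 12 libraries, and the genotype tests the 6 libraries of a stage. Errors of fold changes are model SEs, and all tests were two-sided with n = 3 libraries per group. The biological coefficient of variation was between 7.42% and 9.18%. Alternatives were DESeq2 1.42.0, limma-voom (limma 3.58.1), other scalings and filters, gene length offsets (loess, span 0.5), a replicate block and leaving out each library. The scripts were tested on simulated data. Ratios and lists were described without a test.

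The members and lists were chosen with earlier results of these data known. Named besides the members were listed genes called with at least a 2-fold change between the stages in both genotypes, or with an unadjusted p under 0.05 between genotypes. Bcl7b, Bcl7c, Brd7, Brd9, Smarcd1, Smarcd2, Actb, Mir124a-1hg and Mir124-2hg fall outside this rule and were named after their values were seen.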

Additional observations from a re-analysis of the deposited data

How the results depend on the processing

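The counts of members called between the stages held within 1.5 times under every alternative run. With each library left out they were 8 to 10 in Chd8+/+ (about 15970 to 16210 genes in all) and 8 in Chd8+/- (about 15960 to 16190). The directions of Actl6a, Actl6b, Ss18, Ss18l1, Phf10, Dpf1, Arid1a and Smarca4 between the stages did not turn. Gene length offsets turned Arid1b in Chd8+/+ to -0.13 with edgeR (-0.1253) and with DESeq2 (-0.1285), and Dpf3 in Chd8+/- to -0.19 with both (-0.1872 and -0.1858). Leaving out each library took Dpf3 in Chd8+/- from -0.049 to 0.22. The causes of these changes were not tested. At P5, 1 member (Arid1b) was called between genotypes with DESeq2 (651 genes in all) and 1 with no filter on low counts (995 genes), against 0 in edgeR with the filter. The log2 fold change of Arid1b from DESeq2 was between -0.19 and -0.13 with each P5 library left out (adjusted p between 0.0370 and 0.295). At an unadjusted p under 0.05, 2 members (Arid1b and Ss18) passed for the interaction, and with gene length offsets neither did.

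The small differences between genotypes changed sign as libraries were left out. At E12.5 these were Actl6a (-0.055 to 0.038), Actl6b (-0.18 to 0.026), Phf10 (-0.074 to 0.0046), Dpf3 (-0.18 to 0.19), Ss18l1 (-0.12 to 0.024), Arid1a (-0.11 to 0.055) and Arid1b (-0.027 to 0.034). At P5 they were Phf10 (-0.020 to 0.028) and Smarca4 (-0.0098 to 0.029), which were at -0.012 and -0.013 with all 12 libraries in 1 model. For the interaction they were Phf10 (-0.022 to 0.078), Ss18l1 (-0.091 to 0.064) and Arid1a (-0.17 to 0.0082).

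Replicate numbers are shared by the groups but nothing in the labels pairs them, and libraries with the same number did not deviate together throughout (correlations from -0.351 to 0.347). With the replicate number as a block, 9 members were called between the stages in Chd8+/+ (about 16240 genes in all) and 8 in Chd8+/- (about 16180). In Chd8+/+ Arid1b was not called (adjusted p = 0.0526). The block fits called 0 members between genotypes at either stage (4 genes in all at P5 against 1 without the block) and for the interaction. Dpf3 had the fewest counts of the members, 171 to 356 per library. The effect of depth or of the number of libraries on the calls was not tested.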
